A study of Mus musculus with 12 samples.

Results

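The Bcl-2 family decides whether a T cell lives or enters mitochondrial apoptosis, and 10 of its genes were followed here across all 12 libraries of the series: Bcl2, Bcl2l1 and Mcl1, which encode survival proteins, Bax and Bak1, which encode the pore-forming effectors, and Bcl2l11, Bbc3, Pmaip1, Bid and Bad, which encode the BH3-only proteins. They were chosen by name, as the rows of the count table whose Ensembl identifier maps to these symbols. The rule used no measured value, but earlier results of these data were known when the genes were chosen. They are 10 of 21839 genes in the table and 10 of the 11766 genes with enough reads to be tested, so every one of them passed the filter on low counts.

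Survival proteins such as Bcl-2, Bcl-xL (from Bcl2l1) and Mcl-1 hold Bax and Bak in check on the mitochondrial outer membrane. BH3-only proteins report stress: Bim (from Bcl2l11) answers cytokine loss and strong antigen receptor signals, Puma (Bbc3) and Noxa (Pmaip1) are targets of p53, Bid links death receptors to mitochondria once cut by caspase 8, and Bad is held inactive by growth factor signals. Regulatory T cells (Tregs), the CD4 T cells that restrain immune responses under the transcription factor Foxp3, depend on interleukin-2 for survival, and Mcl-1 and Bim are known to set their number in mice.

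The cells were CD4 T cells of C57BL/6 mice, labelled as regulatory T cells, from spleen and from inguinal, cervical and brachial lymph nodes. All mice carried 2 loxP-flanked Atg5 alleles (Atg5 flox/flox), Atg5 being a gene needed for autophagy. WT mice had no Cre transgene (CD11c Cre -/-), and TG mice had 1 copy (CD11c Cre +/-), whose promoter is active in CD11c-expressing cells, mainly dendritic cells, so the deletion was made in other cells than those sorted. CD4+ cells with a further surface marker were sorted as CD25 High or CD25 Low, CD25 being the interleukin-2 receptor alpha chain encoded by Il2ra. The 4 groups, WT High, WT Low, TG High and TG Low, held 3 libraries each, numbered 1 to 3. The labels give no age, and do not say that the 3 libraries of a group are different animals or pools, so the tests weigh effects against a spread that may be partly technical.

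Total counts ran from 6767828 (TG High replicate 2) to 23942479 (WT High replicate 2), so that TG High replicate 2 gave the least precise values. Atg5 itself stood at 33.3 ± 2.08 CPM in WT High, 37.0 ± 0.579 in WT Low, 38.6 ± 4.13 in TG High and 38.6 ± 2.49 in TG Low (SD, n = 3), which checks no genotype because the deletion lies in CD11c-expressing cells. CPM is the read count scaled to a common library size, after TMM scaling, which corrects for differences in composition. Foxp3 was present in every library, at 983 to 1662 CPM. The 4 libraries numbered 1 stood apart from the other 8 in every group. They held higher summed levels of B cell genes (725 to 1129 against 359 to 596 CPM), of activated or effector Treg genes (814 to 1236 against 309 to 413 CPM) and of cell cycle genes (580 to 940 against 250 to 318 CPM). Gate results below are therefore also given without them. In bulk libraries, fewer cells of a type and less RNA per cell cannot be told apart.

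Mcl1 was the most abundant of the genes. Per kilobase of exon, it stood at 295 ± 50.4 CPM (SD over 12 libraries), 59.6% of the sum over the 10 genes. Bax followed at 78.9 ± 5.59 CPM per kilobase and Bcl2 at 53.1 ± 8.87, and these ranks held in 12 of 12 libraries. Then came a group of near-equal levels: Bid at 14.2 ± 1.94, Bcl2l1 at 14.0 ± 2.55, Bbc3 at 13.3 ± 1.59 and Bcl2l11 at 12.5 ± 1.69 CPM per kilobase. Within it no order held across libraries, since Bid was above Bcl2l1 in 7 of 12, Bcl2l1 above Bbc3 in 7 of 12 and Bbc3 above Bcl2l11 in 8 of 12. Bad (6.45 ± 1.03), Pmaip1 (5.02 ± 0.970) and Bak1 (2.39 ± 1.04 CPM per kilobase) were the lowest. Bad was above Pmaip1 in 11 of 12 libraries, and Pmaip1 was above Bak1 in 12 of 12. By role, the summed level per kilobase was 362 ± 56.7 CPM for the 3 survival genes, 81.3 ± 6.14 for the 2 effectors and 51.5 ± 2.86 for the 5 BH3-only genes.

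The effectors were very unequal. Bax exceeded Bak1 by 16.1-fold to 60.1-fold per kilobase in the 12 libraries. Bax was also the steadiest gene, with a coefficient of variation of 7.08% over all libraries, and Bak1 the most variable, at 43.7%. Bak1 rested on 22 to 245 reads per library, against 686 to 3184 for Bax and 7935 to 27655 for Mcl1, so counting error weighs most on Bak1.

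**Figure D1:**
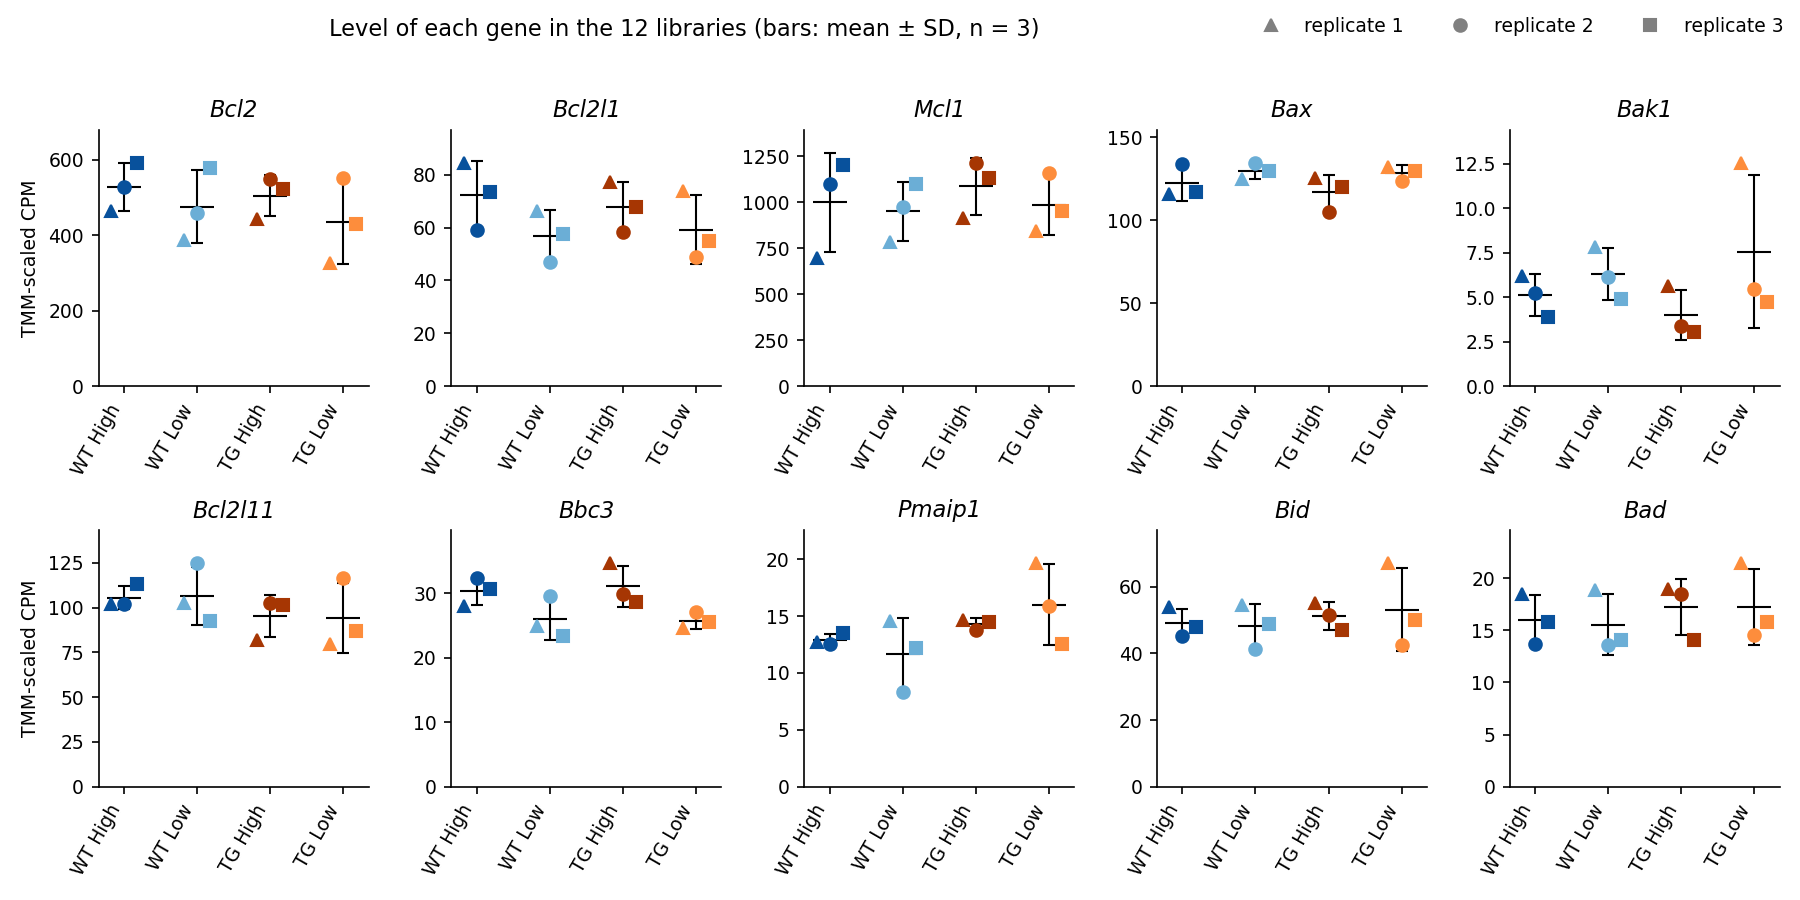
Level of each of the 10 genes in the 12 libraries, in TMM-scaled CPM on linear axes that start at 0, with the mean ± SD of each group of 3 (horizontal bar and whiskers) and a marker for each replicate number. The replicates numbered 1 (triangles) lie below the other libraries for Mcl1 and above them for Bid in all 4 groups, and Bax spans 105 to 135 CPM.

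All positions are on GRCm38, from the GENCODE vM21 annotation. The survival genes lie at chr1:106538178-106714274 (Bcl2, minus strand), chr2:152780668-152831728 (Bcl2l1, minus) and chr3:95658788-95663176 (Mcl1, plus). The effectors lie at chr7:45461697-45466898 (Bax, minus) and chr17:27019810-27029009 (Bak1, minus). The BH3-only genes lie at chr2:128126038-128162547 (Bcl2l11, plus), chr7:16308393-16318205 (Bbc3, plus), chr18:66458533-66465565 (Pmaip1, plus), chr6:120891930-120916853 (Bid, minus) and chr19:6941861-6951899 (Bad, plus). The library chemistry does not mark strand, and 3 of them share exonic bases with a gene on the other strand that is also in the table: Bid shares 628 bases with Bcl2l13, Bad 524 with Gpr137 and Bak1 437 with Ggnbp1. Bcl2 shares 558 bases with D630008O14Rik on the other strand and Bax 192 with Gm45808 on its own strand, neither of which has a row in the table. Reads from such stretches cannot be told apart, so the values of Bid, Bad, Bak1, Bcl2 and Bax are uncertain to that extent.

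The first comparison asked how the genes differ between CD25 High and CD25 Low cells. With the 4 groups alone in the edgeR quasi-likelihood model, none of the 10 passed an adjusted p of 0.05 (Benjamini-Hochberg over all 11766 genes). This held in WT (background 0.051% of all tested genes called), in TG (0.0085%) and for the mean of both genotypes (0.518%). At an unadjusted p under 0.05, the counts were 0, 2 and 2 of 10, against 391, 578 and 1021 of all 11766 tested genes. DESeq2 and limma-voom also called 0 of the 10 in all 3. Libraries with the same number deviated together from their group means, so the replicate number was also fitted as a block. With it, 1 of 10 passed in WT (background 1.63%), 0 in TG (1.68%) and 2 for the mean of both (5.88%). These were Bcl2l1, which was higher in CD25 High, and Bak1, which was lower.

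Bcl2l1 stood at 84.4, 58.9 and 73.6 CPM in WT High replicates 1 to 3, against 66.4, 46.9 and 57.4 in WT Low. In TG, it stood at 77.3, 58.3 and 67.6 CPM in High and at 73.7, 48.9 and 54.9 in Low. The groups overlapped in both genotypes, yet every High library was above the Low library of the same number, by 0.07 to 0.36 on the log2 scale over the 6 pairs. Here and for the genes below, the same pairs enter the blocked fit, so their signs are no separate support for it. With the block, Bcl2l1 was 1.21-fold higher in High over both genotypes (log2 change 0.27, SE 0.06, edgeR adjusted p = 0.00792). In WT alone it was 1.27-fold higher (0.34, SE 0.08, adjusted p = 0.0367), and in TG the change was 0.20 (SE 0.08, adjusted p = 0.299). The difference between the genotypes' gate effects was -0.14 (SE 0.11) and did not pass (edgeR adjusted p = 1.00). Without the block the change over both genotypes was as large, 0.27, with an SE of 0.13 and an edgeR adjusted p of 0.612.

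The call over both genotypes was kept in 12 of 12 blocked fits that each left out 1 library (edgeR adjusted p 0.0103 to 0.0356). The call in WT was kept in 5 of those 12. It was lost without any one of the 6 WT libraries or without TG High replicate 3 (highest adjusted p 0.249). Without the 4 libraries numbered 1, Bcl2l1 was 0.31 higher over both genotypes, and did not pass (blocked edgeR adjusted p = 0.0969).

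Bak1 went the other way. It stood at 6.22, 5.23 and 3.88 CPM in WT High and at 7.80, 6.16 and 4.89 in WT Low. In TG, it stood at 5.62, 3.37 and 3.05 CPM in High and at 12.5, 5.45 and 4.72 in Low. High was below Low in 6 of 6 pairs, by 0.24 to 0.33 on the log2 scale in WT and by 0.63 to 1.16 in TG, although the groups overlapped. With the block, it was lower in High over both genotypes (log2 change -0.57, SE 0.15, edgeR adjusted p = 0.0330). In WT the change was -0.29 (SE 0.21, adjusted p = 0.793) and in TG -0.85 (SE 0.22, adjusted p = 0.0645). The 2 gate effects differed by -0.55 (SE 0.30), which did not pass (edgeR unadjusted p = 0.0832, adjusted p = 1.00). Without the block the change over both was -0.60 (SE 0.27, edgeR adjusted p = 0.572).

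The Bak1 call was kept in 4 of 12 blocked fits that left out 1 library, namely WT High replicate 2, WT Low replicate 1, TG Low replicate 2 or TG Low replicate 3. Leaving out TG Low replicate 1, the highest library, gave -0.42 (adjusted p = 0.160). Without the 4 libraries numbered 1 it was -0.46 (blocked edgeR adjusted p = 0.401). Ggnbp1, whose exons overlap Bak1 on the other strand, had a log2 change of 0.48 (SE 0.35, blocked edgeR adjusted p = 0.519).

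**Figure D2:**
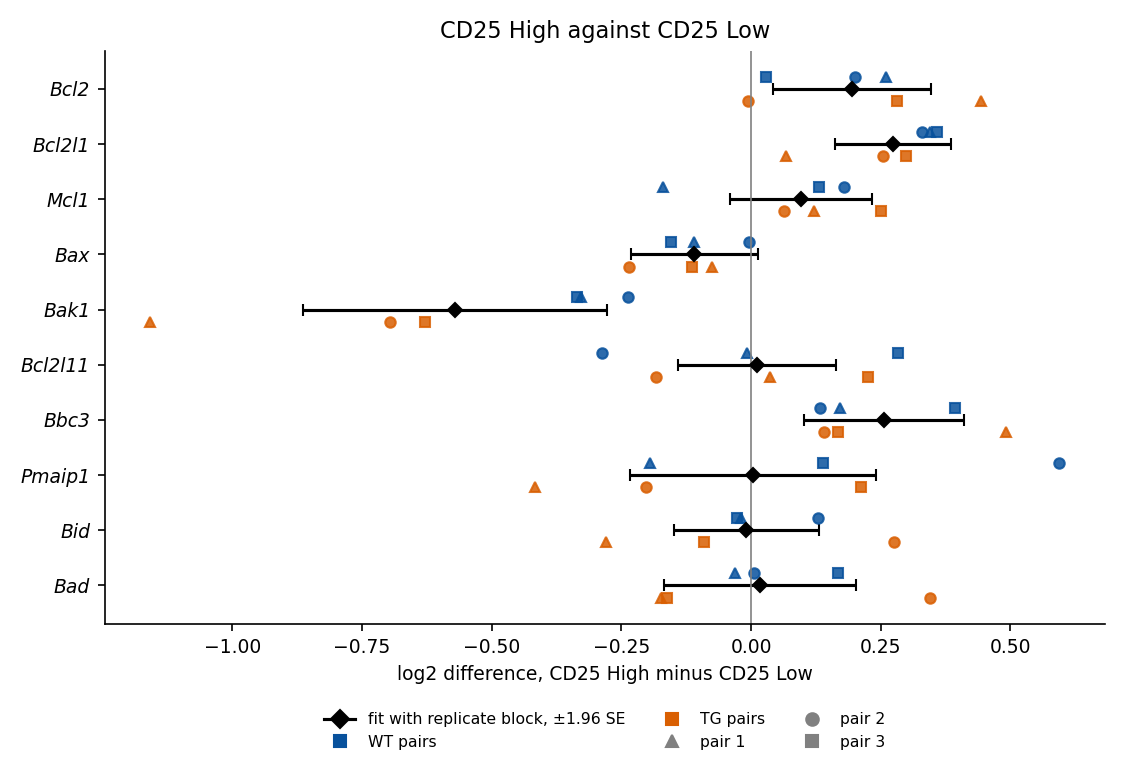
Log2 difference of CD25 High minus CD25 Low for each gene in the 6 pairs of libraries with the same number (blue WT, orange TG, shape for the pair), with the blocked fit over both genotypes as a black diamond ± 1.96 SE. All 6 pairs lie above 0 for Bcl2l1 and Bbc3 and below 0 for Bak1 and Bax, and only Bcl2l1 and Bak1 passed the test. The share of all tested genes with all 6 pairs on the same side was not counted.

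For these 2 genes the promoter windows are shown, since they carried the calls between the gates. They come from RefSeq on GRCm38.p6, run 5′ to 3′ on the gene's strand, and span 250 bases before to 50 bases after an annotated start. Bcl2l1 has 3 such starts, and the counts are per gene, so they do not tell which start was used. The outermost Bcl2l1 window (chr2:152831679-152831978) and the next one (chr2:152830668-152830967) hold 22 and 14 CpG sites, and the Bak1 window (chr17:27028578-27028877) holds 11. The third Bcl2l1 window (chr2:152828440-152828739), not printed here, holds 1. The median over 32851 windows is 7. Capitals mark a match to the NF-kB motif GGGNNNTTCC, found on the opposite strand, whose first base lies at -218 from the second start.
Bcl2l1, outermost start: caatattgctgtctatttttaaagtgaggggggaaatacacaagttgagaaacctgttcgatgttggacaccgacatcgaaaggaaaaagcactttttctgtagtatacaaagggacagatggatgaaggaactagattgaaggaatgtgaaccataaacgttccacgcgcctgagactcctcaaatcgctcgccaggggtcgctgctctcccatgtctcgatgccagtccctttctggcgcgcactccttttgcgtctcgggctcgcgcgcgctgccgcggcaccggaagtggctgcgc
Bcl2l1, second start: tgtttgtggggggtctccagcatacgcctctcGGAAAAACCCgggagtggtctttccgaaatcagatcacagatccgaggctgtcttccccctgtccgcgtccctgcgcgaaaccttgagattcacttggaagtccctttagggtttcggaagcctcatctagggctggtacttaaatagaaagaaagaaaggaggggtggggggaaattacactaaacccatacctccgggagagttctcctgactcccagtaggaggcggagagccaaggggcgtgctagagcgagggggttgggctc
Bak1: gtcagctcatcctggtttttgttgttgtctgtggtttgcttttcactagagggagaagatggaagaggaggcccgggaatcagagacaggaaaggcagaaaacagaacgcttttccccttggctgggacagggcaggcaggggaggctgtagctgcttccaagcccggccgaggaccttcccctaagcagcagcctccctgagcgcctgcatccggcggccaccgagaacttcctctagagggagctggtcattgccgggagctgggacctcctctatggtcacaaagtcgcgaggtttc

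Both strands of 15 windows of 9 genes were searched for 4 motifs; Pmaip1 was not analysed here for its promoter. The STAT motif TTCNNNGAA was in 0 of 15 windows, against 8.30% of all windows. The forkhead (FOXO) motif GTAAACA was in 2 of 15, of Bcl2l11 and Bbc3 (3.65% of all). The NF-kB motif was in 3 of 15, of Bcl2l1, Mcl1 and Bbc3 (5.56% of all), and the p53 half-site in 1, of Bax (8.36% of all). A match of letters in these short windows describes the sequence and shows no binding, and a missing one says nothing of sites elsewhere.

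The other survival genes did not pass between the gates. Bcl2 stood at 464, 529 and 592 CPM in WT High and at 387, 460 and 580 in WT Low. In TG, it stood at 444, 548 and 523 CPM in High and at 326, 551 and 430 in Low. Its blocked change over both genotypes was 0.19 (SE 0.08, edgeR adjusted p = 0.190), with High above Low in 5 of 6 pairs. Leaving out TG Low replicate 2, the pair that did not follow, gave 0.28 with an adjusted p of 0.0147, so Bcl2 passed only without this library among the blocked fits run. Mcl1 averaged 1045 ± 202 CPM in High and 969 ± 146 in Low (SD, n = 6), a blocked change of 0.10 (SE 0.07, adjusted p = 0.518).

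Among the BH3-only genes, Bbc3 came closest. It stood at 28.0, 32.4 and 30.7 CPM in WT High and at 24.9, 29.6 and 23.4 in WT Low. In TG, it stood at 34.6, 29.8 and 28.7 CPM in High and at 24.6, 27.1 and 25.5 in Low. High was above Low in 6 of 6 pairs, and the blocked change was 0.26 (SE 0.08, edgeR adjusted p = 0.0706). Blocked DESeq2 (adjusted p = 0.0495) and blocked limma-voom (0.0483) put it just past the threshold, and so did leaving out TG High replicate 2 (blocked edgeR adjusted p = 0.0363).

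Bcl2l11 averaged 100.5 ± 10.1 CPM in High and 100.5 ± 17.4 in Low, with a blocked change of 0.01 (SE 0.08), whose interval of 1.96 SE runs from -0.14 to 0.16. Bid (-0.01, SE 0.07), Bad (0.02, SE 0.09) and Pmaip1 (0.00, SE 0.12) were as close to 0. These means average over opposite values. The Bcl2l11 pairs differed by -0.29 (WT) and -0.18 (TG) for number 2 and by 0.28 and 0.23 for number 3. For number 1 they differed by -0.01 and 0.04. The blocked Pmaip1 change was 0.16 (SE 0.17) in WT and -0.16 (SE 0.17) in TG, and neither passed. Of the effectors, Bax was lower in High in 6 of 6 pairs, by less than 0.24 on the log2 scale in each, and did not pass (blocked -0.11, SE 0.06, edgeR adjusted p = 0.383). The ratio of Bax to Bak1 per kilobase was 42.6 ± 11.2 in High and 31.9 ± 9.93 in Low (SD, n = 6), and was higher in High in 6 of 6 pairs. Over the 10 genes the median blocked change was 0.01, against 0.00 over all tested genes.

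Genes around the family were read from 5 related lists. For the mean of both genotypes, 5.88% of all tested genes passed with the block and 0.518% without it. Of 18 other Bcl-2 family genes, 13 were tested and 0 passed between the gates with or without the block. Bcl2a1b and Bcl2a1d are near-identical copies whose reads the counting may split, and their values are uncertain. Of 17 genes of the apoptosome and the caspases, 1 passed for the mean of both genotypes with the block, Birc2, an inhibitor of apoptosis protein (0.23, SE 0.05, edgeR adjusted p = 0.0174), and 0 without it. Of 17 regulators of the family, 16 were tested. The ubiquitin ligase component Fbxw7, which marks Mcl-1 for degradation, passed with the block (-0.29, SE 0.07, adjusted p = 0.0301), and none passed without it. With the block, 1 of 17 and 1 of 16 are near the share over all tested genes. Without the 4 libraries numbered 1, neither passed in either fit (blocked: Birc2 0.21, edgeR adjusted p = 0.316, and Fbxw7 -0.20, adjusted p = 0.539).

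Of 12 death receptor genes, Fasl, the ligand of Fas, was lower in High with and without the block. Its 3 libraries spanned 4.18 to 7.13 CPM in WT High, 12.2 to 14.1 in WT Low, 3.61 to 6.58 in TG High and 11.3 to 14.2 in TG Low, so the gates did not overlap. Without the block the log2 change over both genotypes was -1.26 (SE 0.17, edgeR adjusted p = 0.0103), and Fasl was the sole one of the 12 to pass. With it, Fasl changed by -1.28 (SE 0.15, adjusted p = 5.6e-05), and 2 more passed: Fas itself was higher in High (0.28, SE 0.06, adjusted p = 0.00703) and the receptor gene Tnfrsf1a lower (-0.24, SE 0.06, adjusted p = 0.0374). Without the 4 libraries numbered 1, Fasl changed by -1.19 in both fits and passed with the block (edgeR adjusted p = 0.000935) but not without it (0.0688). Fas (0.29, blocked edgeR adjusted p = 0.140) and Tnfrsf1a (-0.24, 0.321) did not pass there.

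Of 16 genes of interleukin-2, interleukin-7 and STAT5 input, 3 were higher in High over both genotypes without the block: Il2rb, Il2ra and Socs2. Il2ra encodes the sorted protein, so its change of 1.00 (SE 0.11, edgeR adjusted p = 0.00251) only describes the gate. Il2rb, which encodes the interleukin-2 receptor beta chain, rose by 0.85 (SE 0.06, adjusted p = 0.000146). Socs2, an inhibitor of cytokine signalling, rose by 1.06 (SE 0.13, adjusted p = 0.00434). With the block 6 passed as higher and 0 as lower, among them Cish, another such inhibitor (0.53, SE 0.07, adjusted p = 0.000184). When the libraries numbered 1 were left out, Il2rb alone of the 16 passed in the fit without the block (0.80, edgeR adjusted p = 0.00936). There Il2ra stood at 0.90 (adjusted p = 0.0687) and Socs2 at 0.95 (0.0688). With the block 4 passed as higher: Il2rb, Il2ra, Socs2 and Cish. Over all genes tested without those libraries, 177 of 11562 passed with the block and 3 without it.

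Several cell markers moved with the gate. Foxp3 was 0.47 higher in High (SE 0.07, edgeR adjusted p = 0.0115), and the 16 Treg core genes summed to 8129 to 9235 CPM in High against 5246 to 6293 in Low. Of the 16, 7 passed as higher without the block and 15 with it. Il2ra, whose rise only describes the gate, is in the sum and among the 7, as are Il2rb and Socs2 from the list above. Of 10 conventional CD4 genes, 2 passed as lower without the block and 5 with it, and their sums overlapped (2407 to 3154 against 2556 to 3683 CPM). Of 14 activated or effector Treg genes, 0 passed without the block, and 3 as higher and 3 as lower with it. Their sums overlapped too (352 to 961 against 309 to 1236 CPM). Of 10 B cell genes 1 passed as lower with the block, and of 15 cell cycle genes 1 as higher, with 0 without it. Of the CD8 T or NK genes, 0 of 10 passed without the block and 5 as lower with it (summed 68.9 to 97.7 against 57.0 to 121 CPM). Of the myeloid or dendritic genes, 0 of the 8 tested passed without the block and 4 as lower with it. These summed to 10.9 to 44.9 CPM in High and to 9.22 to 166 in Low. The highest value there was TG Low replicate 1, also the highest library for Bak1. In the 8 other libraries alone, without those numbered 1, Foxp3 was 0.45 higher (edgeR adjusted p = 0.130, and 0.00807 with the block). The blocked counts there were 13 of 16 Treg core genes higher and 4 of 10 conventional CD4 genes lower, with 0 of 5 tested CD8 T or NK genes and 0 of 5 tested myeloid genes. Of 13 tested activated or effector Treg genes, 2 were higher and 1 lower, and 0 of 10 B cell and 0 of 15 cell cycle genes passed. Over all genes tested there, 177 of 11562 passed with the block and 3 without it. The part of these cells and states in the Bcl2l1 and Bak1 differences was not tested.

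The second comparison asked whether the genes differ when Atg5 is deleted in CD11c-expressing cells. None of the 10 did so by the test. In edgeR without the block, 0 passed in CD25 High, 0 in CD25 Low and 0 for the mean of both gates (background 0%, with no gene called in any of the 3). At an unadjusted p under 0.05 the counts were 0, 1 and 0 of 10, against 99, 48 and 163 of all 11766 tested genes. DESeq2 and limma-voom, with or without the block, also called 0 of the 10 in each. With the block, 0 of 10 passed in High (background 0%), in Low (0%) and for the mean (0.051%, 6 genes). At an unadjusted p under 0.05 there were then 0, 1 and 2 of 10, against 418, 382 and 781 of all 11766 tested genes. The test of whether the genotype effect differs between the gates called 0 of 10 with and without the block (background 0% in both). Both fits had 0 of 10 at an unadjusted p under 0.05, against 118 of all tested genes with the block and 27 without it.

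The gene with the smallest p was Pmaip1, which encodes Noxa, an antagonist of Mcl-1. It stood at 12.7, 12.5 and 13.5 CPM in WT High against 14.7, 13.8 and 14.5 in TG High. In CD25 Low it stood at 14.5, 8.29 and 12.2 CPM in WT against 19.6, 15.9 and 12.5 in TG. TG was above WT in 6 of 6 pairs, by 0.03 to 0.94 on the log2 scale. The blocked change over both gates was 0.30 (SE 0.12, edgeR unadjusted p = 0.0254, adjusted p = 0.664), and in Low 0.46 (SE 0.17, unadjusted p = 0.0161, adjusted p = 1.00). Over the 37 fits tried for the mean, the change ran from 0.21 to 0.40, and the smallest adjusted p was 0.512.

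Bcl2l11 (Bim) had the next smallest p. Its levels were 102, 102 and 113 CPM in WT High against 81.9, 103 and 101 in TG High, and 102, 125 and 92.7 in WT Low against 79.8, 117 and 86.8 in TG Low. TG was below WT in 5 of 6 pairs, though the groups overlapped in both gates. The blocked change over both gates was -0.17 (SE 0.08, edgeR unadjusted p = 0.0462, adjusted p = 0.737).

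For the other 8 genes the blocked change over both gates lay between -0.10 (Bcl2) and 0.12 (Bad). The intervals of 1.96 SE show what these libraries could still hide. For the mean of both gates they ran, over the 10 genes, from 0.766-fold to 1.45-fold. Bcl2l1 had one of the narrowest, from -0.13 to 0.09 around -0.02, and Bak1 the widest, from -0.38 to 0.21 around -0.09. Their median change was -0.00 with the block, against 0.00 over all tested genes. In the 5 related lists, 0 genes passed between the genotypes in either gate or for the mean of both, with or without the block. The B cell genes were on the side of TG in 10 of 10 in both gates, and 1 of them, Cd22, passed for the mean of both with the block. The cell cycle genes were on the side of TG in 15 of 15 in both gates (15 in High and 13 in Low with the block), and the activated or effector Treg genes in 12 of 14 in High and 14 in Low (11 and 14 with the block), with 0 passing. Over all tested genes, 53.4% in High and 52.4% in Low were on that side without the block. Other marker lists were mixed in High and Low: myeloid or dendritic 8 and 7 of 8 (7 and 3 with the block), Treg core 5 and 15 of 16. Conventional CD4 genes gave 7 and 2 of 10, and CD8 T or NK genes 4 and 5 of 10. The genes of a list are not independent observations. The part of these lists in the genotype values was not tested.

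**Figure D3:**
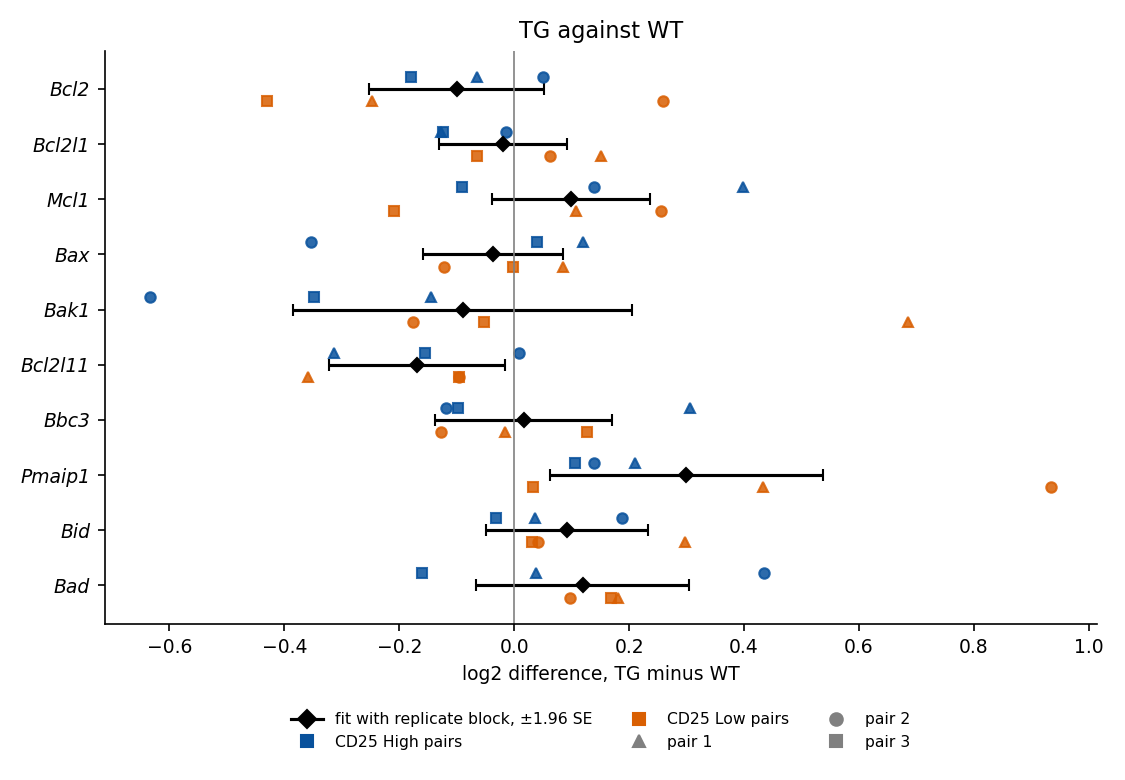
Log2 difference of TG minus WT for each gene in the 6 pairs of libraries with the same number (blue CD25 High, orange CD25 Low, shape for the pair), with the blocked fit over both gates as a black diamond ± 1.96 SE. All 6 pairs lie above 0 for Pmaip1 alone, and no gene passed the test.

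More of the 10 genes passed by replicate number, whose meaning the labels do not give, than by gate or genotype. With the 4 groups held constant, 6 of 10 differed between the libraries numbered 1 and those numbered 2 and 3, against a background of 27.5% of all tested genes (1976 higher and 1263 lower, or 2325 and 763 when scaled by library totals alone). The members' median change was 0.13, against -0.01 over all tested genes. Bcl2l1, Bak1, Bad and Bid were higher in the libraries numbered 1, and Mcl1 and Bcl2 were lower.

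Of the survival genes, Mcl1 stood at 696, 782, 917 and 843 CPM in the libraries numbered 1 (WT High, WT Low, TG High and TG Low) and at 952 to 1215 in the other 8. The 2 sets did not overlap, and the log2 change was -0.45 (SE 0.08, edgeR adjusted p = 0.000323). Bcl2 stood at 464, 387, 444 and 326 CPM against 430 to 592, a change of -0.39 (SE 0.08, adjusted p = 0.00299). Bcl2l1 went the other way, at 84.4, 66.4, 77.3 and 73.7 CPM against 46.9 to 73.6 (0.38, SE 0.06, adjusted p = 0.000142). Bcl2l1 per kilobase was thus 0.376 ± 0.0509 of Bcl2 in the libraries numbered 1 (SD, n = 4) and 0.222 ± 0.0296 in the other 8. Within the survival group the 3 genes did not move together.

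Bak1 was 1.72-fold higher in the libraries numbered 1 (0.78, SE 0.15, edgeR adjusted p = 0.00114), at 8.05 ± 3.14 CPM (SD, n = 4) against 4.59 ± 1.08 (n = 8). Bax, its partner effector, averaged 125 ± 6.84 CPM against 124 ± 10.1, with a change of 0.00 (SE 0.07). Bid stood at 53.8, 54.5, 55.1 and 67.0 CPM against 41.3 to 51.4, without overlap (0.30, SE 0.07, adjusted p = 0.00671). Bad rose by 0.38 (SE 0.10, adjusted p = 0.00864), from 15.0 ± 1.65 to 19.4 ± 1.33 CPM. Without TG Low replicate 1, Bid (0.22, edgeR adjusted p = 0.0748) and Bad (0.34, 0.0576) did not pass. Bcl2l11 (-0.20, adjusted p = 0.0816), Pmaip1 (0.26, 0.149), Bbc3 (-0.03, 0.848) and Bax (0.970) did not pass. Bcl2l11 passed without WT High replicate 2 (edgeR adjusted p = 0.0190) or without WT Low replicate 3 (0.0355). The number called was 4 to 7 of 10 over the 12 fits that left out 1 library.

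**Figure D4:**
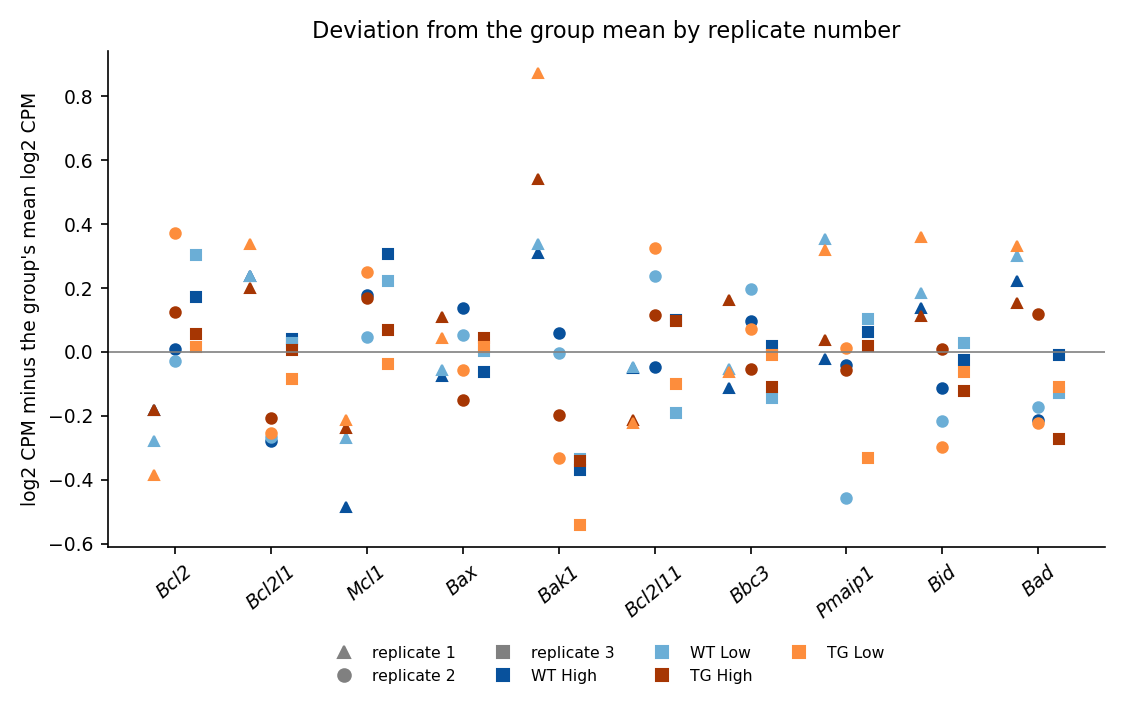
Deviation of each library's log2 CPM from the mean of its own group of 3, by gene, with a column of markers for each replicate number (triangles 1, circles 2, squares 3) and a colour for each group. The 4 libraries numbered 1 lie above 0 for Bcl2l1, Bak1, Bid and Bad and below 0 for Bcl2 and Mcl1.

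The related lists moved in both directions with the number, as did all tested genes, of which 27.5% passed. The counts below are to be read against that share. Of the other Bcl-2 family genes, 5 of 13 tested were higher and 0 lower in the libraries numbered 1: Bcl2a1b, Bcl2a1d, Bcl2l14, Bcl2l15 and Bmf. Bmf, a BH3-only gene, rose from 5.15 ± 1.07 to 7.31 ± 1.73 CPM (0.52, SE 0.16, edgeR adjusted p = 0.0252). Bcl2a1b, a survival gene and one of the near-identical copies, rose from 18.7 ± 1.83 to 35.1 ± 3.32 CPM (0.91, SE 0.09, adjusted p = 9.2e-07).

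Of the apoptosome and caspase genes, 3 of 17 were higher and 3 lower. Among the lower ones were Casp8, the initiator of the death receptor route (-0.26, SE 0.06, edgeR adjusted p = 0.00231), and Birc2 (-0.25, adjusted p = 0.00405). Of the interleukin-2, interleukin-7 and STAT5 genes, 7 of 16 were lower and 0 higher, among them Socs1 (-0.38, adjusted p = 0.00136), Myc (-0.30, adjusted p = 0.00883) and Stat3 (-0.20, adjusted p = 0.0104). Of the regulators, Gadd45b was higher, and Mdm4 and Foxo1 lower, 3 of 16 in all. Of the death receptor genes, 1 of 12 was higher (Tnfrsf1b) and 3 lower (Casp8, Ripk1 and Tnfrsf1a). Casp8 belongs to both this list and that of the caspases.

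Marker genes of other cells and states moved with the number too. All 10 B cell genes, all 14 activated or effector Treg genes and all 15 cell cycle genes passed as higher in the libraries numbered 1. Of the CD8 T or NK genes, 8 of 10 passed as higher (summed 94.7 to 121 against 57.0 to 86.6 CPM), and Prf1, which encodes perforin, as lower (14.1 ± 1.30 against 27.2 ± 8.99 CPM). Of the myeloid or dendritic genes, 6 of 8 tested passed as higher (21.9 to 166 against 9.22 to 21.1 CPM). Csf1r and C1qa, which define macrophages, had 0 reads in TG Low replicates 2 and 3, whereas Csf1r had 414 in TG Low replicate 1. The conventional CD4 genes summed to 2407 to 2765 CPM in the libraries numbered 1 and to 2888 to 3683 in the others, with 5 of 10 lower. Which cells carry the family's differences by number was not tested. What the number marks and these cell markers cannot be told apart.

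Over the 12 libraries, the gene most like Bcl2l1 in log2 level was Ctla4, a Treg inhibitory receptor (Pearson r = 0.97), followed by the receptor Tnfrsf4 and by Ncf1 (both 0.95). For Bcl2 the most like was Kdm3a (0.94), for Mcl1 Acbd3 (0.93), for Bid Cox7b (0.97) and for Bak1 Nptn (0.95). For Pmaip1 the highest value in this measure was lower, with Crip1 (0.78). These values describe 12 libraries that share group and replicate number, and the search covered genes averaging 10 CPM or more. With the means of group and number subtracted first, other genes led. They were Cd44 for Bcl2l1 (0.97), Pigl for Mcl1 (0.99), Stk11 for Bak1 (0.97) and Diexf for Pmaip1 (0.97). Each value is the highest of a search over many genes in 12 libraries, and a high r alone shows no link. Subtracting the means leaves fewer independent values, so the second set of r cannot be compared with the first.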

How the data were processed

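The data are RNA-seq read counts of 12 libraries of sorted CD4 T cells. Per the labels' protocols, RNeasy Mini RNA (10 ng) went into SMARTer Ultra Low cDNA and Nextera XT libraries, which carry no strand mark. The authors deposited raw counts, whole numbers of reads per Ensembl gene. Tools named in the submitters' processing notes are CASAVA (1.8.2), STAR (2.4) and featureCounts (1.4.6), with build GRCm38; the notes used here give no settings. Of 21839 genes, 21628 matched a GENCODE vM21 symbol, and rows without a match held 0.0381% of reads.

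Tests used edgeR 4.0.16 in R 4.3.3: TMM scaling, filterByExpr (minimum count 10, 11766 genes kept), and robust quasi-likelihood fits over the 12 libraries with 1 level per group. P-values were adjusted by Benjamini-Hochberg over all tested genes, at a threshold of 0.05. SE is the log2 change over the square root of F, and intervals are 1.96 SE. Replicate 1 was set against the mean of 2 and 3 in a model with group and number. Code was tested on simulated counts. Alternatives were DESeq2 1.42.0, limma-voom (limma 3.58.1), other scalings and filters, each library left out, and the replicate number as a block. The titles share numbers across groups without saying what they mark. Deviations from the group means correlated at 0.34 to 0.83 for 18 same-numbered pairs and at -0.688 to 0.197 for 36 other pairs, so the numbers were taken to pair the libraries, on the data and not the labels.

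No 2 replicates agreed within sampling noise (chi-square per degree of freedom 21.0 to 48.1). There are no molecular identifiers, so read counts understate the error of low genes. All 10 genes are named in every comparison. Pair signs and overlaps between sets of libraries were read for named genes only, so no share over all tested genes stands beside them. From related lists, genes that passed were named, up to the 4 of smallest p, or all where 5 or fewer passed. Some genes that this rule would name are not reported here. The genes and lists were chosen with earlier results of these data known. Promoter windows come from RefSeq (GRCm38.p6).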

Additional observations from a re-analysis of the deposited data

How the results depend on the processing

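The counts of the 10 genes called depended on the replicate block, on single libraries within the blocked fits and on the libraries numbered 1. Between CD25 High and Low, the 0 called without the block became 1 in WT under the replicate block in edgeR, in DESeq2, in limma-voom and with RLE scaling. In TG it became 1 under blocked DESeq2 (Bak1, adjusted p = 0.0335). For the mean of both genotypes it became 2 under the block in edgeR and with RLE scaling, and 3 under blocked DESeq2 and limma-voom. The last 3 kinds of blocked fit were chosen after seeing the data. Leaving out 1 library in turn called 0 in every gate comparison without the block, and with it 0 to 1 in WT, 0 to 1 in TG and 1 to 3 for the mean. By replicate number it called 4 to 7. Without the 4 libraries numbered 1, 0 of 10 passed between the gates in either fit. All genotype and interaction counts stayed at 0 under every alternative run. Without the block, RLE scaling, library totals, both other filters, DESeq2, limma-voom and the fits on 6 libraries left each count of the 10 genes as it was. Over all genes, the gate counts of 6, 1 and 61 (WT, TG, mean) became 192, 198 and 692 with the block and 46, 63 and 256 in DESeq2, with blocked DESeq2 at 281, 358 and 830 and blocked limma-voom at 235, 270 and 834. Fits on 6 libraries gave 1 in WT and 0 in TG, and no filter gave 3 in TG. Leaving out 1 library gave 0 to 7, 0 to 3 and 15 to 75 without the block, and 87 to 247, 74 to 235 and 415 to 775 with it. The lowest blocked counts came without WT Low replicate 1 (87 in WT, 415 for the mean) and TG Low replicate 1 (74 in TG). Without the libraries numbered 1 they became 0, 0 and 3, or 49, 39 and 177 with the block. The genotype count for the mean of both gates was 0, 6 with the block (1 to 8 with 1 library left out), 36 in blocked DESeq2 and 38 in blocked limma-voom. The cause of these differences was not tested. Depth limits Bak1 most, which had 22 reads in TG High replicate 2.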
